A study of Homo sapiens with 6 samples.

Results

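The genes that build the scaffold, the actin filaments and the Z-discs of the muscle sarcomere were described across 6 arrays of RD18 cells: ACTA1, ACTC1, ACTN2, NEB, TTN, LDB3, TCAP, MYPN, MYOM1 and MYBPH. They are 10 of 18417 genes that the array measures in a row carrying their symbol alone. They were picked by name for their place in the sarcomere, but with earlier results of these data known. Counts of them set beside all rows are therefore descriptions. Of several rows carrying the symbol of a gene alone, the one with the highest mean would have been taken. Each of the 10 had exactly 1 such row, so no choice between rows was needed. RD18 is an established embryonal rhabdomyosarcoma line, a tumour of cells that resemble unfinished skeletal muscle. Total RNA was hybridised to whole-transcript Affymetrix arrays, and the arrays fall into 4 groups. Induced miR-22 cells (RD18 NpBI-22) had received doxycycline at 1 µg/ml for 6 days, which switches on miR-22 from the construct (2 arrays). Non-induced miR-22 cells are the same derivative left untreated (2 arrays). Induced NpBI-206AS cells had the same doxycycline treatment (1 array), and non-induced NpBI-206AS cells were left untreated (1 array). The labels do not say what NpBI-206AS expresses when induced, nor whether either derivative is a single clone. The miR-22 replicates are described as biological, without saying whether they were separate thawings or passages, so the p-values below rest on the spread between these arrays. In models with 1 mean per group that spread came from the miR-22 replicates alone, since each NpBI-206AS group has 1 array.

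A sarcomere is the repeating contractile unit of striated muscle. Thin filaments of actin are anchored by their barbed ends in the Z-disc, where alpha-actinin cross-links them, and myosin thick filaments are held in register at the M-band. Titin spans from Z-disc to M-band, and nebulin runs along the thin filament and takes part in setting its length. Developing skeletal muscle uses the cardiac alpha-actin gene ACTC1 before the skeletal gene ACTA1 becomes the main one. Many of these genes are switched on when myoblasts withdraw from division and differentiate, a step that rhabdomyosarcoma cells complete poorly.

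The microRNA that the construct delivers is shown first, because its induction defines the main comparison. Its mature form, as RefSeq gives it on GRCh38.p14 (minus strand, chr17:1713914-1713935), is printed with its seed, bases 2 to 8, in capitals.
hsa-miR-22-3p: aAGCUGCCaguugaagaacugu
The mature microRNA was not measured on these arrays, and its host gene MIR22HG served as a check of the labels. MIR22HG had log2 levels of 10.02 and 10.01 in miR-22 cells when induced and 6.27 and 6.72 when not. NpBI-206AS cells had 6.32 when induced and 6.41 when not. The muscle lineage was checked too. Desmin (DES), MYOD1 and MYOG, defining genes of skeletal muscle cells, had log2 levels between 8.05 and 10.11 on every array, against array medians of 5.66 to 5.75. The 9 skeletal muscle markers averaged 7.45 to 8.02 per array, and the 5 cardiac markers with a row averaged 5.18 to 5.31. Blood, endothelial and epithelial markers averaged 4.05 to 4.95, while smooth muscle markers averaged 5.12 to 5.59, fibroblast markers 6.41 to 7.11 and neural markers 5.53 to 5.98. Single markers in lists of low average lay above the array medians on every array. Among them were endothelial TEK (7.33 to 7.78), cardiac NKX2-5 (6.94 to 7.21) and epithelial KRT14 (6.01 to 6.45). Of the 9 skeletal muscle markers, MYF5 and MYF6, both of the MyoD family, lay below the array medians on all arrays, MYF5 with 3.88 to 3.96, at about the lower quartile (3.92 to 4.01), and MYF6 with 4.21 to 4.94. Upon miR-22 induction limma called 1 of these 9 lower, DES, beside 2.01% of all rows, and their median log2 difference was -0.53. At an unadjusted p under 0.05, 4 were lower and 1 higher, beside 21.6% of all rows. Among the markers of other cell types, limma called 1 of 6 fibroblast and 1 of 6 smooth muscle markers higher upon miR-22 induction and none of the others. Of all rows 1.59% were called higher. Fibroblast markers COL1A1 (9.43 to 10.25) and THY1 (8.46 to 10.17) were high on every array, and the others lay lower. The fibroblast marker called was THY1 (log2 difference 1.51, limma adjusted p = 0.025). The part of these other cell type markers in the results below was not tested.

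Codes in the labels set the arrays apart: those of induced miR-22 cells begin with R715, that of non-induced miR-22 replicate 1 with R509, and the remaining 3 with R587. What the prefix stands for is not stated. Prefix and miR-22 induction cannot be told apart. The comparison between non-induced NpBI-206AS cells and non-induced miR-22 replicate 2 lies within R587, and its values are given below.

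The regions around the transcription starts of the genes are printed because several of these genes had like profiles while the 2 alpha-actin genes differed. RefSeq windows of 300 bases, 250 before and 50 after a start, were found for 9 of the 10 genes (12 windows on GRCh38.p14, since ACTC1 has 3 starts and LDB3 has 2 with overlapping windows). A set of 3 motifs was searched on both strands: the CArG box, which the serum response factor binds, the MEF2 box, and the E-box CANNTG of the MyoD family. A CArG box was present in the windows of 4 of the 9 genes (5 of 12 windows), against 1.29% of all 35116 windows in the table. The 2 overlapping windows of LDB3 hold the same box, so this box counts in both. A MEF2 box was present in 1 of 12 windows, against 2.99% of all windows, and an E-box in 10 of 12, against 68.7%. In the first 5 windows below capitals mark the CArG box or, in TTN, the MEF2 box. In the NEB window, which held neither, capitals mark the 4 E-boxes. All are written 5′ to 3′ on the strand of the gene.
ACTC1, first start, minus strand, chr15:34795500-34795799: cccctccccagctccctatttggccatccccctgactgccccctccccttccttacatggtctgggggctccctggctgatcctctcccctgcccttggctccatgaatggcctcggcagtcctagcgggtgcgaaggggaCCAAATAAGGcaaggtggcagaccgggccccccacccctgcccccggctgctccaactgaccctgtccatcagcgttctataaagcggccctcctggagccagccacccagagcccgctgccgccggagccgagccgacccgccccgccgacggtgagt
ACTA1, minus strand, chr1:229434045-229434344: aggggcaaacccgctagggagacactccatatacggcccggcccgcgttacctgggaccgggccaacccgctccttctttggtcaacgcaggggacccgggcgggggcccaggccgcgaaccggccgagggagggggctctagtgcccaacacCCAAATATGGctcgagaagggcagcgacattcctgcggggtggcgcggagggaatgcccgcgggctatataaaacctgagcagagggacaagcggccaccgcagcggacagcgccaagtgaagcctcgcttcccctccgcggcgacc
MYOM1, minus strand, chr18:3219919-3220218: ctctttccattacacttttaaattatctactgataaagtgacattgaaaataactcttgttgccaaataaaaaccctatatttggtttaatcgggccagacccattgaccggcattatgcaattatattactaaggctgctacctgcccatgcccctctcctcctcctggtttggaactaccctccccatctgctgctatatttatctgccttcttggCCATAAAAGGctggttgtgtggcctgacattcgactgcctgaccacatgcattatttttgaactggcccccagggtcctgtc
LDB3, first start, plus strand, chr10:86668261-86668560: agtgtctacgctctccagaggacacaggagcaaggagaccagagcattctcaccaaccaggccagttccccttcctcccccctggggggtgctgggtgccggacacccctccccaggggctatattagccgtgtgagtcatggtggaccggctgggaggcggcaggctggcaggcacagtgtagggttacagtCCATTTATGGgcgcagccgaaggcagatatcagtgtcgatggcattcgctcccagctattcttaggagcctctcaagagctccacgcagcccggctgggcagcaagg
TTN, minus strand, chr2:178807374-178807673: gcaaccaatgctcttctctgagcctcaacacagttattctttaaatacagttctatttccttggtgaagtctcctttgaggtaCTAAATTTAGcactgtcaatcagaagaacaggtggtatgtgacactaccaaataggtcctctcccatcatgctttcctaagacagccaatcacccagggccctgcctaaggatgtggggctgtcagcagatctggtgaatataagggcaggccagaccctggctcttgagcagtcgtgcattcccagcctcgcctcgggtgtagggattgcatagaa
NEB, minus strand, chr2:151734427-151734726: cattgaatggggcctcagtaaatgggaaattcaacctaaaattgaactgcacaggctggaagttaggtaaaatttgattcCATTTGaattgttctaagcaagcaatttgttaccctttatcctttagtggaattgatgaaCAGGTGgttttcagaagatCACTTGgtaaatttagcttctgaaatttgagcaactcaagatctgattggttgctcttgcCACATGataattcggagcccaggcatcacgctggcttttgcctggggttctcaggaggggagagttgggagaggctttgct
Both alpha-actin genes carried a CArG box at a similar distance, CCAAATAAGG from -109 to -100 in ACTC1 and CCAAATATGG from -97 to -88 in ACTA1, counted from the start at 1 with -1 as the base before it. LDB3 had CCATTTATGG from -57 to -48 and MYOM1 CCATAAAAGG from -32 to -23. The MEF2 box of TTN was CTAAATTTAG from -167 to -158. A match describes these letters and does not show that a factor binds there.

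In induced miR-22 cells 5 of the 10 genes fell relative to non-induced miR-22 cells: MYBPH, TTN, NEB, ACTC1 and MYOM1. None rose. The falls were about 4-fold for the 3 that fell most (4.35-fold for MYBPH, 4.04-fold for TTN and 4-fold for NEB) and about 2-fold for ACTC1 (2-fold) and MYOM1 (1.96-fold). Over the whole array limma called 3.6% of the 33297 rows at an adjusted p under 0.05, with 2.01% lower and 1.59% higher. With each array centred on its median, 718 of 1292 called rows were higher, instead of 531 of 1200. At an unadjusted p under 0.05 there were 7 of the 10, beside 21.6% of all rows. The median log2 difference of the 10 genes was -0.90, beside 0.01 over all genes. Both induced arrays lay below both non-induced arrays in 8 of the 10 genes, a pattern found in 26% of all rows. In these bulk cultures, fewer cells that express a gene and less RNA per cell cannot be told apart.

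The thin filament genes behaved unequally. ACTC1 (row 7987315), the alpha-actin of heart and of immature skeletal muscle, had log2 levels of 11.17 and 11.16 in miR-22 cells when induced and 12.13 and 12.20 when not. In NpBI-206AS cells it had 11.19 when induced and 11.30 when not. The 2 non-induced miR-22 arrays were thus the high ones, and the other 4 lay between 11.16 and 11.30. Its log2 difference upon miR-22 induction was -1.0 (SE 0.146, limma adjusted p = 0.033). ACTA1 (row 7924910), the alpha-actin of mature skeletal muscle, had 8.04 and 7.79 in miR-22 cells when induced and 7.66 and 7.82 when not. NpBI-206AS cells had 7.61 when induced and 7.50 when not. Its groups overlapped and its difference was 0.18 (SE 0.17, adjusted p = 0.62). The 6 actin genes encode nearly the same protein, and how far ACTC1, ACTA1 and the other actins share signal on the array was not assessed.

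Nebulin (NEB, row 8055711) followed another pattern. Its log2 levels in miR-22 cells were 7.14 and 7.95 when induced and 9.19 and 9.91 when not. In NpBI-206AS cells it had 9.48 when induced and 8.93 when not. The induced miR-22 arrays were below all 4 others, and the NpBI-206AS arrays lay near the non-induced miR-22 arrays, where those of ACTC1 lay near the induced ones. The difference upon miR-22 induction was -2.0 (SE 0.354, limma adjusted p = 0.048), with replicates 0.81 apart in the induced and 0.72 apart in the non-induced group.

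Of the genes of titin and its partners, TTN itself fell and TCAP did not pass the test. TTN (row 8057056) had 5.76 and 6.06 in miR-22 cells when induced and 7.56 and 8.28 when not, and 6.15 and 6.43 in NpBI-206AS cells when induced and when not. The 2 non-induced miR-22 arrays were again the high ones. The difference was -2.02 (SE 0.274, limma adjusted p = 0.028). TCAP (row 8006896), telethonin, which joins the ends of 2 titin molecules at the Z-disc, had 5.68 and 5.35 in miR-22 cells when induced and 5.47 and 5.41 when not. NpBI-206AS cells had 5.38 when induced and 5.26 when not. The groups overlapped, all 6 values lay below the array medians, and the difference of 0.07 (SE 0.176, limma adjusted p = 0.87) turned to -0.09 without induced replicate 1.

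The Z-disc genes had smaller differences that missed the threshold. ACTN2 (row 7910727), the muscle alpha-actinin that cross-links actin, had 7.45 and 7.37 in miR-22 cells when induced and 8.16 and 8.33 when not, with 7.23 and 7.33 in NpBI-206AS cells when induced and when not. The groups of miR-22 cells did not overlap (difference -0.83, SE 0.155, limma adjusted p = 0.054). Under 4 of the alternatives ACTN2 passed, with adjusted p-values of 0.047 after quantile normalization, 0.043 after cyclic loess, 0.021 without dim rows and 0.037 with a replicate block. LDB3 (row 7928838), a PDZ and LIM protein that binds alpha-actinin, had 4.84 and 4.82 in miR-22 cells when induced and 5.62 and 5.50 when not, and 4.75 and 5.09 in NpBI-206AS cells when induced and when not. Its miR-22 groups did not overlap either (difference -0.73, SE 0.149, limma adjusted p = 0.062). Its levels lay between the lower quartile and the median of the arrays, where signal over background is not known. MYPN (row 7927827), myopalladin, which links nebulin and alpha-actinin, had 7.22 and 7.65 in miR-22 cells when induced and 7.79 and 8.18 when not, and 7.91 and 7.88 in NpBI-206AS cells when induced and when not. Its induced miR-22 arrays were the 2 lowest of the 6, but replicates were 0.43 and 0.39 apart, and the difference of -0.55 (SE 0.226, adjusted p = 0.24) did not pass.

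The M-band and thick filament genes both fell. MYOM1 (row 8022045), myomesin-1, which cross-links myosin filaments at the M-band, had 4.36 and 4.58 in miR-22 cells when induced and 5.53 and 5.36 when not. It had 4.51 in NpBI-206AS cells when induced and 4.94 when not, so the non-induced miR-22 arrays were highest and the others overlapped. The difference was -0.97 (SE 0.167, limma adjusted p = 0.045). Like those of LDB3, its levels lay between the lower quartile and the median of the arrays, where signal over background is not known. MYBPH (row 7923534), myosin-binding protein H of the thick filament, had 5.87 on both arrays of induced miR-22 cells and 7.96 and 8.02 without induction. NpBI-206AS cells lay between them, with 6.30 when induced and 6.71 when not. Its difference of -2.12 (SE 0.146, limma adjusted p = 0.015) was the largest among the 10 genes.

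When the fit was repeated without 1 of the miR-22 arrays at a time, limma called 0 of the 10 genes and 0 rows of the whole array, with the median of the 10 between -0.90 and -0.87. At an unadjusted p under 0.05 there were 7 of the 10 each time, beside 10.6% to 24.4% of all rows. The difference of NEB then ran from -2.40 without induced replicate 2 to -1.60 without induced replicate 1, and that of TTN from -2.38 without non-induced replicate 1 to -1.66 without non-induced replicate 2. With each array centred on its median, NEB and MYOM1 missed the threshold (adjusted p = 0.052 each), as did NEB with rows of a gene averaged (0.051) and MYOM1 after quantile normalization (-0.91, 0.05).

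**Figure D1:**
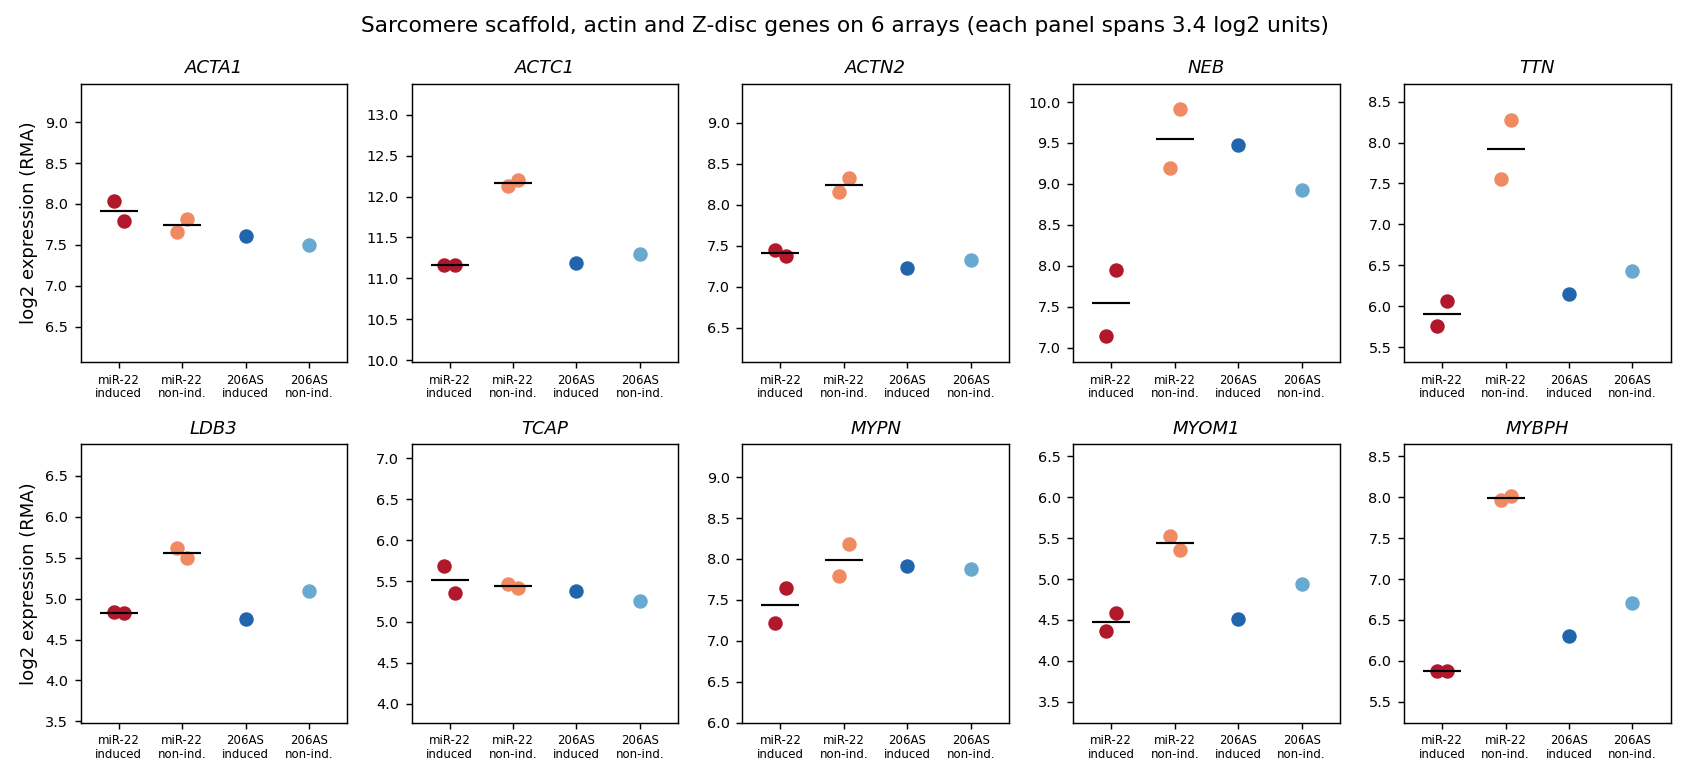
Log2 expression of the 10 genes on each array (y axis, each panel 3.4 log2 units tall) by group (x axis); points are arrays and lines the mean of groups with 2 arrays. In ACTC1 the NpBI-206AS arrays (11.19 and 11.30) sit beside the induced miR-22 arrays, in NEB (9.48 and 8.93) beside the non-induced ones, and in ACTA1 and TCAP the groups lie close together.

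The NpBI-206AS arrays give the levels of these genes in cultures in which miR-22 was not induced. All 10 were lower in non-induced NpBI-206AS cells than in miR-22 cells without induction, by a median of -0.56 on the log2 scale beside -0.02 over all genes. Limma called 0 of them, and 0% of all rows, in this comparison of 1 array with 2, in which the single array was assumed to vary like the others. At an unadjusted p under 0.05 there were 5 of the 10 (ACTC1, ACTN2, TTN, LDB3 and MYBPH), beside 3.44% of all rows. TTN differed by -1.49 (SE 0.336), MYBPH by -1.28 (SE 0.178), ACTN2 by -0.91 (SE 0.19) and ACTC1 by -0.86 (SE 0.178), each with a limma adjusted p of 0.93. MYPN differed by -0.10 (SE 0.277), and by 0.09 without non-induced miR-22 replicate 2. Within the code prefix R587, non-induced NpBI-206AS cells against non-induced miR-22 replicate 2, the differences ran from -1.85 for TTN to -0.15 for TCAP and all 10 were negative. Both NpBI-206AS arrays lay below both non-induced miR-22 arrays in 8 of the 10 genes, all but NEB and MYPN, as did 22.1% of all rows. This comparison shares the non-induced miR-22 arrays with the main one, so that a high value there enters both.

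Induced miR-22 cells were also set against induced NpBI-206AS cells, which had the same doxycycline treatment. The differences of 9 of the 10 genes ran from -0.48 for MYPN to 0.31 for ACTA1. For ACTC1 it was -0.03 (SE 0.178), for MYOM1 -0.04 (SE 0.204), for ACTN2 0.18 (SE 0.19), for LDB3 0.09 (SE 0.182) and for TTN -0.24 (SE 0.336). With each array centred on its median, ACTC1 and MYOM1 had 0.04 and 0.02, so neither has a settled sign. MYBPH differed by -0.43 (SE 0.178, limma adjusted p = 0.34). NEB had the largest difference, -1.93 (SE 0.433), a 3.82-fold lower level in induced miR-22 cells. It was the one gene of the 10 at an unadjusted p under 0.05, beside 15.7% of all rows, and limma called 0 of the 10 after adjustment (adjusted p = 0.13 for NEB). Of all rows 0.39% were called in this comparison of 2 arrays with 1. With both NpBI-206AS arrays taken as 1 group, an alternative chosen after seeing the data, the NEB difference was -1.66 with a limma adjusted p of 0.032. That made 1 of the 10 genes called, near the share of all rows (3183 of 33297). Without the dimmest rows NEB also passed (adjusted p = 0.042).

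**Figure D2:**
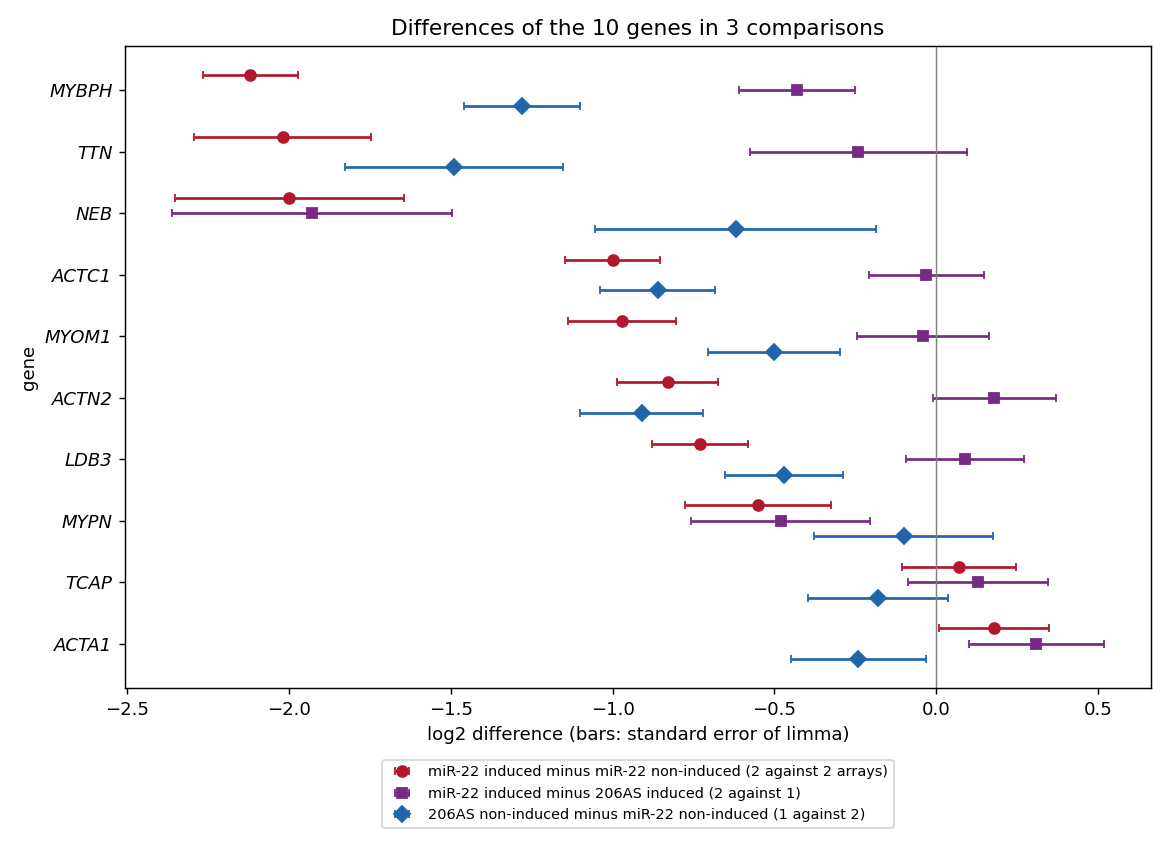
Log2 differences (x axis) with standard errors (bars) of the 10 genes (rows, sorted by the first comparison) in 3 comparisons that share arrays. For NEB the purple square (-1.93, against induced NpBI-206AS cells) lies by the red circle (-2.0, against non-induced miR-22 cells), whereas for ACTC1 it lies near 0 (-0.03) and the blue diamond, non-induced NpBI-206AS against non-induced miR-22 cells, lies at -0.86.

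Against all 4 control arrays, fitted as 1 group, NEB was the one gene of the 10 that limma called. It was lower in induced miR-22 cells by 1.83 on the log2 scale (log2 difference -1.83, SE 0.308, limma adjusted p = 0.0095). Over the whole array 13.7% of rows were called, 7.43% lower and 6.32% higher, so 1 of the 10 is near the share of all rows. Without induced replicate 1 the NEB difference was -1.43. Of the other 9, MYBPH (-1.38, SE 0.488, adjusted p = 0.11) and MYPN (-0.51, SE 0.166, adjusted p = 0.09) had an unadjusted p under 0.05. With NEB that makes 3 of the 10, near the share of all rows (28%). Without the induced NpBI-206AS array, MYBPH also passed (-1.69, limma adjusted p = 0.047) and 2 of the 10 genes were called, beside 3020 of 33297 rows. Both induced miR-22 arrays lay below all 4 controls in 5 of the 10 genes (ACTC1, NEB, TTN, MYPN and MYBPH), as in 18.3% of all rows. For ACTC1 the gap was that between 11.17 and 11.19.

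Doxycycline in NpBI-206AS cells was read as the difference of 1 induced and 1 non-induced array and is given as values, with no test. No gene of the 10 differed 2-fold there, and over the array 0.234% of rows were at least 2-fold higher and 0.438% lower. NEB had the largest difference, 0.55, in the direction opposite to that in miR-22 cells. MYOM1, MYBPH and LDB3 had -0.43, -0.42 and -0.35 and TTN -0.29, and the remaining 5 genes lay between -0.11 and 0.12. The response of miR-22 cells minus that of NpBI-206AS cells was negative in 9 of the 10, with a median of -0.65 beside -0.01 over all genes. Its own test called 0 of the 10 and 0% of all rows in limma. At an unadjusted p under 0.05 were 5 of the 10 (ACTC1, ACTN2, NEB, TTN and MYBPH), beside 8.88% of all rows. NEB had -2.55 (SE 0.613, limma adjusted p = 0.38) and MYBPH -1.7 (SE 0.252, adjusted p = 0.27).

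Likeness between the 10 genes was read over the 6 arrays. Correlations over 6 arrays that share their groups and code prefixes are given as descriptions only. TTN and MYBPH each followed the mean of the other 9 genes most closely (r = 0.98 each), followed by ACTC1 (0.96), MYOM1 (0.93), LDB3 (0.92) and ACTN2 (0.89). NEB and MYPN followed it less (0.68 and 0.71) but followed each other (0.96). In both, as in TTN, replicate 2 lay above replicate 1 in induced and in non-induced miR-22 cells. ACTA1 and TCAP ran against the mean (-0.27 and -0.21) and resembled each other (0.83), although all their differences were small. The 5 other genes whose profile was most like the mean of the 10, among genes with a range of at least 1 on the log2 scale, were CKM (r = 0.966), CCDC141 (0.957), MYH3 (0.954), LRRFIP1 (0.952) and TNNC1 (0.947). LRRFIP1 has 10 rows, and only the one with the highest mean was read. CKM is the muscle creatine kinase, MYH3 the embryonic myosin heavy chain and TNNC1 the troponin C of slow and cardiac muscle. CKM had log2 levels of 5.34 and 4.98 in miR-22 cells when induced and 7.03 and 7.20 when not, and 5.29 and 5.90 in NpBI-206AS cells when induced and when not.

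**Figure D3:**
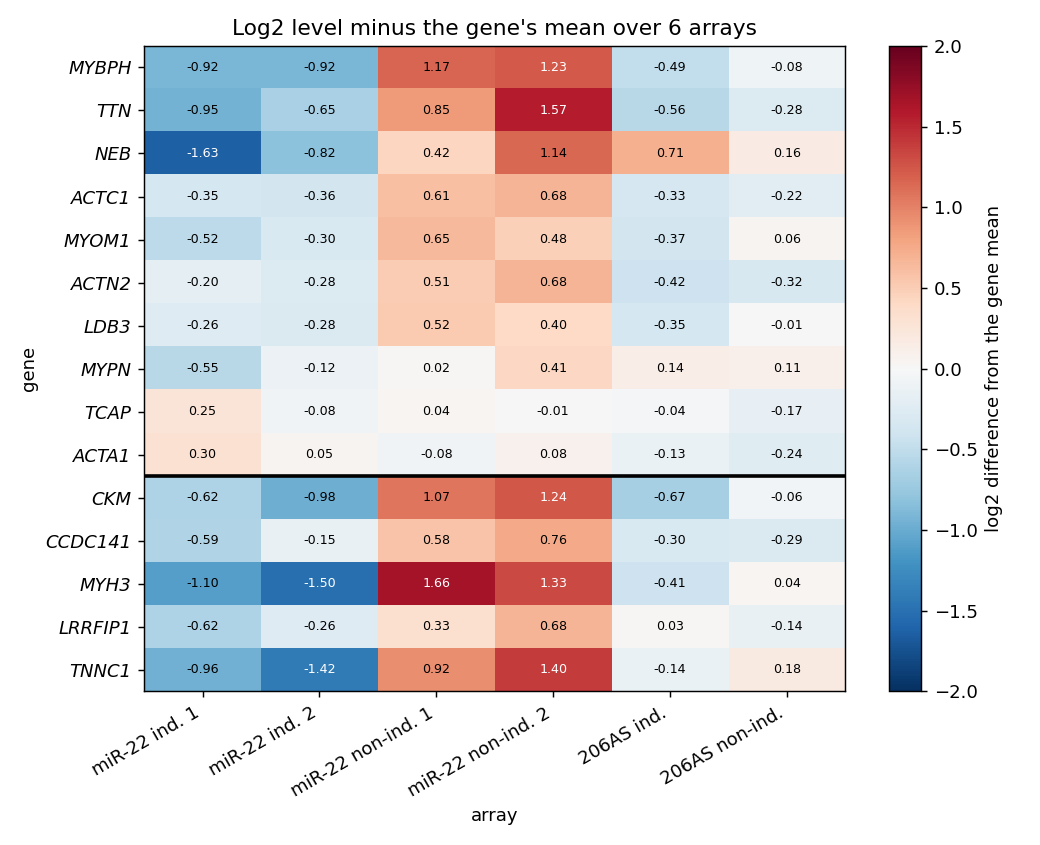
Log2 level minus the mean of the gene over 6 arrays (colour and number) for the 10 genes, above the line, and the 5 genes of most similar profile, below it; columns are arrays. Induced NpBI-206AS cells are above the mean for NEB (0.71) and MYPN (0.14) and below it for TTN (-0.56), MYBPH (-0.49) and ACTN2 (-0.42).

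Other genes of the sarcomere and of the wider actin cytoskeleton were read from 8 further lists. Of 23 other Z-disc genes with a row, 2 fell and none rose upon miR-22 induction, with a median of -0.28. Of all rows 2.01% were called lower and 1.59% higher. At an unadjusted p under 0.05, 7 of the 23 were lower and 0 higher, beside 21.6% of all rows in either direction. The 2 called were SYNM and DES, both intermediate filament proteins that tie Z-discs together. SYNM had 6.59 and 6.77 in miR-22 cells when induced and 8.34 and 8.31 when not, and 8.36 and 8.46 in NpBI-206AS cells when induced and when not. Its 4 control arrays thus lay close together, above both induced miR-22 arrays. It fell by 1.65 on the log2 scale against non-induced miR-22 cells (SE 0.154, limma adjusted p = 0.019) and was lower than in induced NpBI-206AS cells too (-1.68, SE 0.189, adjusted p = 0.049). DES fell by 1.07 (SE 0.17, adjusted p = 0.038) and had -0.76 against induced NpBI-206AS cells (adjusted p = 0.18).

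Of 12 other M-band, titin-linked and myosin-binding genes limma called 0, with a median of -0.58; at an unadjusted p under 0.05 there were 6, all lower, beside 21.6% of all rows in either direction. MYOM2, a myomesin of fast fibres, differed by -1.31 (adjusted p = 0.088) and the kinase gene SPEG by -0.92 (adjusted p = 0.055). Of 13 genes of thin filament length and capping 1 fell, beside 2.01% of all rows, and the median was -0.04. This was the tropomodulin TMOD1 that caps pointed ends (-1.04, SE 0.165, limma adjusted p = 0.038). Of 11 sarcomere assembly genes limma called 0, with a median of -0.23 and, before adjustment, 2 higher and 2 lower at p under 0.05. The myosin chaperone gene UNC45B had -1.44 (adjusted p = 0.096). STAC3 had -0.84 (adjusted p = 0.085). It was placed in this list, but is known for excitation-contraction coupling rather than sarcomere assembly.

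Among the 4 other actin genes, which serve the cytoskeleton and smooth muscle, limma called 0 (1 higher at an unadjusted p under 0.05), with a median of 0.18. ACTG1, cytoplasmic gamma-actin, had 0.46 (SE 0.154, limma adjusted p = 0.16) and ACTG2 0.19 (adjusted p = 0.77). Of 6 listed other alpha-actinin and filamin genes 3 had a row, and limma called 0 (1 lower at an unadjusted p under 0.05). ACTN3, the alpha-actinin of fast fibres, differed by -1.12 (SE 0.228, adjusted p = 0.062) and ACTN1, a non-muscle one, by -0.07 (SE 0.149, adjusted p = 0.84). Of 12 focal adhesion and stress fibre genes 1 fell, beside 2.01% of all rows, with a median of 0.13. This was the adaptor PXN (-1.16, SE 0.202, limma adjusted p = 0.046). At an unadjusted p under 0.05, 1 was lower and 1 higher.

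Of 12 transcription factors of sarcomere genes with a row, 1 fell upon miR-22 induction, beside 2.01% of all rows, with a median of -0.03. This was TEAD4 (-0.98, SE 0.174, limma adjusted p = 0.049). At an unadjusted p under 0.05, 3 were lower and 1 higher, beside 21.6% of all rows. Among factors whose motifs were searched, SRF had -0.91 (limma adjusted p = 0.12), MYOG -0.69 (0.16) and MYOD1 -0.53 (0.24). MYF6 had 0.52 (0.13), MEF2C 0.25, MEF2D 0.07, MYF5 0.04 and MEF2A -0.05. In this comparison limma called no gene of the 8 lists higher.

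**Figure D4:**
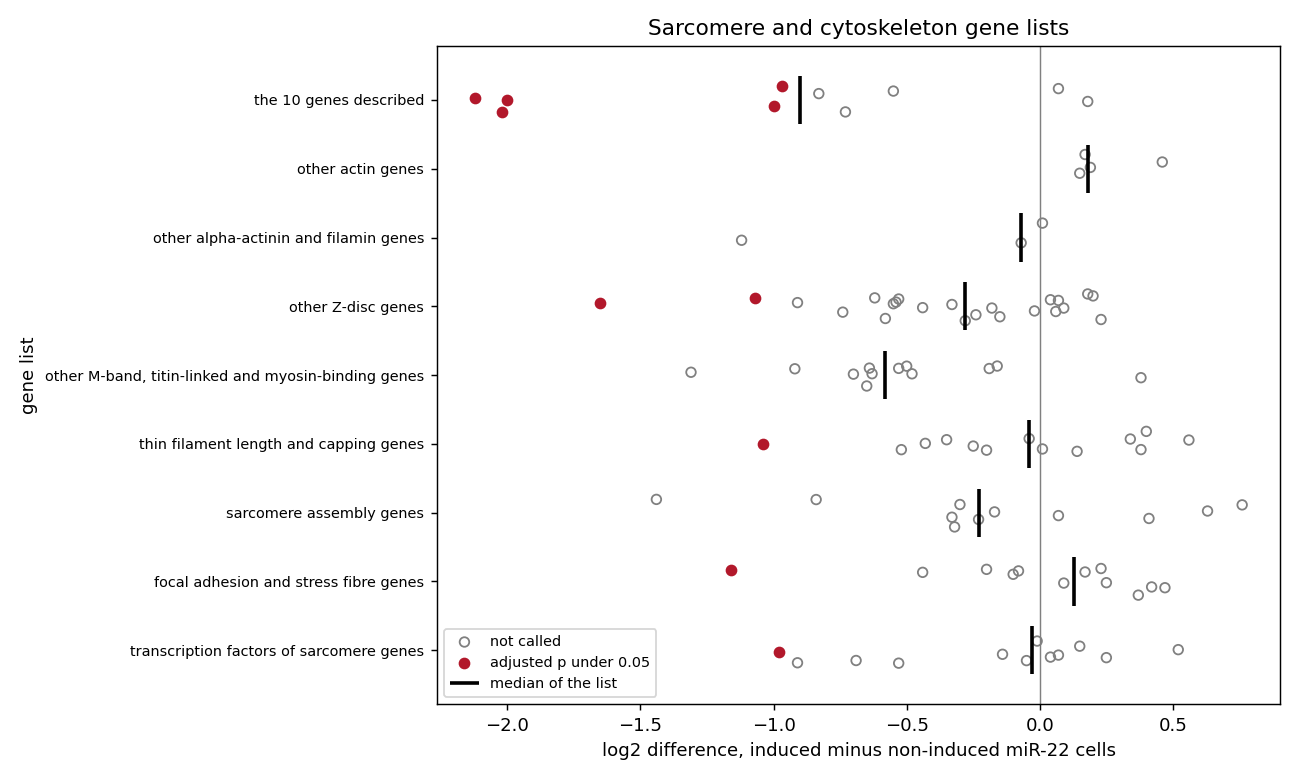
Log2 difference upon miR-22 induction, induced minus non-induced (x axis), of each measured gene in the 10 genes described and in 8 further lists (rows); filled points passed limma at an adjusted p under 0.05 and black bars are list medians. The medians run from -0.90 for the 10 genes and -0.58 for other M-band and myosin-binding genes to 0.18 for the other actin genes.

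On GRCh38.p14 the spans of 6 of the 10 genes overlap another named gene, among them TTN with its antisense RNA TTN-AS1, NEB with RIF1 and MYBPH with CHI3L1. Where the probes of each row lie was not examined, so a share of signal from such partners was not assessed.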

How the data were processed

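Per the submitters' processing notes, the authors made the deposited log2 expression values with RMA in Partek; for versions, parameters and the genome build: not given in the sources used here. Medians of the deposited arrays are 5.66 to 5.75, and a shift common to the whole transcriptome cannot be read from such normalized values. The table holds 33297 rows for 6 arrays. Rows were named through the platform annotation, with symbols updated by gene ID from an NCBI table (GRCh38.p14): 19460 rows had 1 symbol, 1754 several and 12083 none, and genes were named from the first kind only, by the row with the highest mean.

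Linear models with 1 mean per group over 6 arrays were fitted with limma 3.58.1 in R 4.3.3, moderated with eBayes (2 residual and 3.62 prior degrees of freedom), tested two-sided and adjusted by Benjamini-Hochberg over all rows (threshold 0.05). Induced miR-22 arrays were also set against all 4 controls in a separate model with 2 means, induced miR-22 arrays and all other arrays. Differences among the controls, between the lines and with doxycycline, thus entered the error of that model. The fits were tested on simulated data in which few rows were changed, which makes the adjustment stricter. There the test against induced NpBI-206AS cells and that of the difference of the responses recovered none of the changes set. The lack of a call in these tests thus says little, although the test against induced NpBI-206AS cells did call some rows of the deposited data. In the main comparison log2 changes of -1 and of -2 were mostly missed. Groups came from sample titles.

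The members and lists were chosen with earlier results of these data known. All 10 genes were named, and of each further list up to 3 called genes, otherwise the 2 with the largest difference, in the main comparison, and the 5 genes of most similar profile. Listed genes of the factors whose motifs were searched were named as well. Alternatives covered normalization, centring, dim rows, averaged rows, an intensity trend, a replicate block and arrays left out. The number of arrays limits the precision.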

Additional observations from a re-analysis of the deposited data

How the results depend on the processing

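Upon miR-22 induction 5 of the 10 genes were called, and 3 with each array centred on its median. With 1 miR-22 array left out the count was 0 each time. Against all 4 controls 1 gene was called, and 0 to 2 with 1 array left out. Against induced NpBI-206AS cells 0 were called (130 rows), but 1, NEB, without the dimmest 50 percent of rows (747 rows) and 1, NEB, with both NpBI-206AS arrays as 1 group (3183 rows). The last setting and leaving out an NpBI-206AS array were chosen after seeing the data. LDB3, MYOM1 and TCAP were among the dim rows; without these 2609 rows instead of 1200 were called upon induction. Both groups of miR-22 cells are numbered 1 and 2, but with 2 pairs (deviations correlated at r = 0.196 over all rows) the numbers do not establish pairing; the replicate block gave 7 genes, adding ACTN2 and LDB3, and 2955 rows, and 0 genes for the difference of the responses. In the comparison of the non-induced lines and in the difference of the responses, 0 genes were called under every alternative run. Signs turned in small differences. With 1 array left out, TCAP ran from -0.09 to 0.24 upon induction, from -0.03 to 0.30 against all controls, from -0.03 to 0.30 against induced NpBI-206AS cells and from -0.21 to 0.12 in the difference of the responses. Likewise MYOM1 ran from -0.15 to 0.07 against induced NpBI-206AS cells, MYPN from -0.30 to 0.09 between the non-induced lines, and ACTA1 from -0.06 to 0.19 in the difference of the responses. Against induced NpBI-206AS cells ACTC1 and MYOM1 turned to 0.04 and 0.02 with centring and LDB3 to -0.09 with both NpBI-206AS arrays as 1 group, and TCAP turned to 0.05 in the difference of the responses after quantile normalization, cyclic loess or centring. The cause was not tested. Fewer arrays per fit leave fewer degrees of freedom. For dim rows signal over background is unknown.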

Other observations

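Several genes of the further lists had lower levels on both NpBI-206AS arrays than on all 4 miR-22 arrays, SYNPO2L, MEF2A and MEF2D among them. Those described here were picked after their values were seen, and the share of all rows with this pattern was not counted. SMYD1, a methyltransferase needed for sarcomere assembly, had 8.45 and 8.55 in miR-22 cells when induced and 7.65 and 7.82 when not, against 6.80 and 6.35 in NpBI-206AS cells when induced and when not. It was 1.7 higher on the log2 scale in induced miR-22 than in induced NpBI-206AS cells (SE 0.191, limma adjusted p = 0.049), and its difference of 0.76 within miR-22 cells did not pass (adjusted p = 0.063). The transcription factor gene MEF2C had 8.56 and 8.90 in miR-22 cells when induced and 8.48 and 8.47 when not, against 7.35 and 7.29 in NpBI-206AS cells (1.38 between the induced lines, SE 0.216, limma adjusted p = 0.075). MYOG, which drives myoblast differentiation, had 9.5 and 9.01 in miR-22 cells when induced and 9.79 and 10.11 when not, and 8.57 and 8.86 in NpBI-206AS cells. ANKRD1, a titin-binding ankyrin repeat protein, had 8.99 and 9.83 in miR-22 cells when induced and 9.80 and 9.58 when not, and 7.57 and 8.50 in NpBI-206AS cells, in each case with the induced array first.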
